A study of Mus musculus and Homo sapiens with 65 samples.

Results

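The 91 genes described here are the nuclear-encoded genes of oxidative phosphorylation, measured by RNA-seq in mouse embryos at the late 2-cell stage. They were chosen by name from the 32287 genes in the deposited tables: every symbol that starts with Nduf, Uqcr, Cox4 to Cox8 or Atp5, together with Sdha, Sdhb, Sdhc and Sdhd. The pattern matched 94 names, and 3 ending in -ps, which marks pseudogenes, were left out. The 91 comprise 38 genes named as complex I subunits, 7 assembly factors of complex I (symbols starting with Ndufaf), 4 genes of complex II, 8 of complex III, 17 of complex IV and 17 of complex V. A name is not a function in every case: Atp5s, Atp5sl and Cox7a2l are named for these complexes without being established subunits of them. Complexes were assigned by symbol alone, so Ndufa4 and Ndufa4l2 are counted in complex I because of their names.

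Oxidative phosphorylation makes ATP at the inner mitochondrial membrane. Complexes I and II feed electrons into a quinone pool, complexes III and IV pass them through cytochrome c to oxygen while protons are pumped, and complex V, the ATP synthase, uses the proton gradient to make ATP. Most subunits are encoded in the nucleus and imported, and a small set, including the catalytic core of complex IV, is encoded by mitochondrial DNA. In the mouse, the first cell cycles run on mRNA and mitochondria supplied by the oocyte, and the major wave of embryonic transcription starts at the 2-cell stage.

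The 9 libraries used fall into 4 groups, and the other samples of the series were not analysed here. Alpha-amanitin, a toxin that blocks RNA polymerase II, was given to the embryos of 2 libraries. Morpholinos targeting Kdm5a together with Kdm5b had been injected in 2 more (Kdm5a+b MO), mismatch versions of these in a further 2 (control MO), and 3 libraries were from wild-type embryos. Kdm5a and Kdm5b are demethylases of histone H3 lysine 4. The morpholinos carried fluorescein and went into zygotes, and culture ended at the late 2-cell stage in all 4 groups. The sources used here do not give the dose and timing of alpha-amanitin, the mouse strain, or whether that group was also injected, and wild-type embryos carry no stated treatment. One Kdm5a+b MO title reads Kdm5+b, and its source label reads Kdm5a+b. Nothing in the labels ties replicates to separate collections, so the p-values cover only library-to-library spread, part of which may be technical.

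Levels are FPKM, in which fragment numbers are corrected for transcript length and for the library's total, so they can be compared between genes, but each is relative to the rest of its own library. Read counts are not part of the tables and depth in reads is unknown. The 2-cell markers (10 genes, among them Zscan4d, Zfp352 and Tdpoz1) summed to 14.2 to 16.03 FPKM with alpha-amanitin, 382 to 447 FPKM with Kdm5a+b MO, 356 to 384 FPKM with control MO and 287 to 400 FPKM in wild type. Oocyte markers (12 genes, among them Bmp15 and Oosp1) summed to 983 to 1105 FPKM with alpha-amanitin, 663 to 685 FPKM with Kdm5a+b MO, 517 to 613 FPKM with control MO and 538 to 644 FPKM in wild type. Bmp15 alone had 463 and 487 FPKM with alpha-amanitin and 229, 154 and 219 FPKM in wild type. Gdf9, Zp3, H1foo, Khdc3, Zar1 and Nlrp5 overlapped between these groups. The remaining oocyte markers lay above all wild-type libraries with alpha-amanitin. Of the 12 cumulus markers, Foxl2 and Inha were listed at 0 in all 9 libraries, and the list summed to 0.505 to 0.725 FPKM with alpha-amanitin against 11.3 to 14.7 FPKM in wild type, where Amhr2 gave most of it. The sperm markers Prm1 and Acr and the blood markers Hbb-bt and Hbb-bs were also listed at 0 in all 9 libraries. Other members of these lists were detected. At least 1 FPKM was reached in some library by 3 of 9 sperm, 3 of 7 blood and 2 of 4 oviduct markers. Tnp1 had 5.44 FPKM in wild-type replicate 3 and Odf1 had 4.21 FPKM in wild-type replicate 2. Hba-a1 had 4.62 FPKM in wild-type replicate 1 and Hba-a2 had 5.72 FPKM in Kdm5a+b MO replicate 2. No sperm, blood or oviduct list summed to more than 9.46 FPKM in any library. The part of these marker differences in the results below was not tested. In bulk embryos, fewer cells of a type and less RNA per cell cannot be told apart.

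In wild-type embryos the 91 genes spanned a wide range of levels. Atp5b, the catalytic beta subunit of the ATP synthase, stood far above the rest with 337, 579 and 464 FPKM, a mean of 460 FPKM that ranked 20 among the 32287 genes. The next 3 were complex IV subunits. Cox8a, the ubiquitous form of subunit 8, had 74.7, 65.0 and 96.9 FPKM and ranked 444. Cox6b2, known as the testis isoform of subunit 6b, had 74.8, 56.6 and 30.2 FPKM and ranked 799, and Cox6a1, the ubiquitous form of subunit 6a, had 50.1, 51.1 and 60.2 FPKM and ranked 802. Cox6b2 overlapped both Cox8a and Cox6a1 across the wild-type libraries, every Cox8a value lay above every Cox6a1 value, and Atp5b overlapped none of the 3. Of the 91 genes, 18 averaged at least 10 FPKM in wild type and 26 averaged under 1 FPKM (28.6%, against 64.3% of all genes in the tables). The median of the wild-type means was 2.60 FPKM for the 91 genes. By complex it was 7.25 FPKM for complex V, 5.51 FPKM for complex III, 3.83 FPKM for the complex I assembly factors, 2.19 FPKM for complex I, 1.65 FPKM for complex IV and 1.61 FPKM for complex II.

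**Figure D1:**
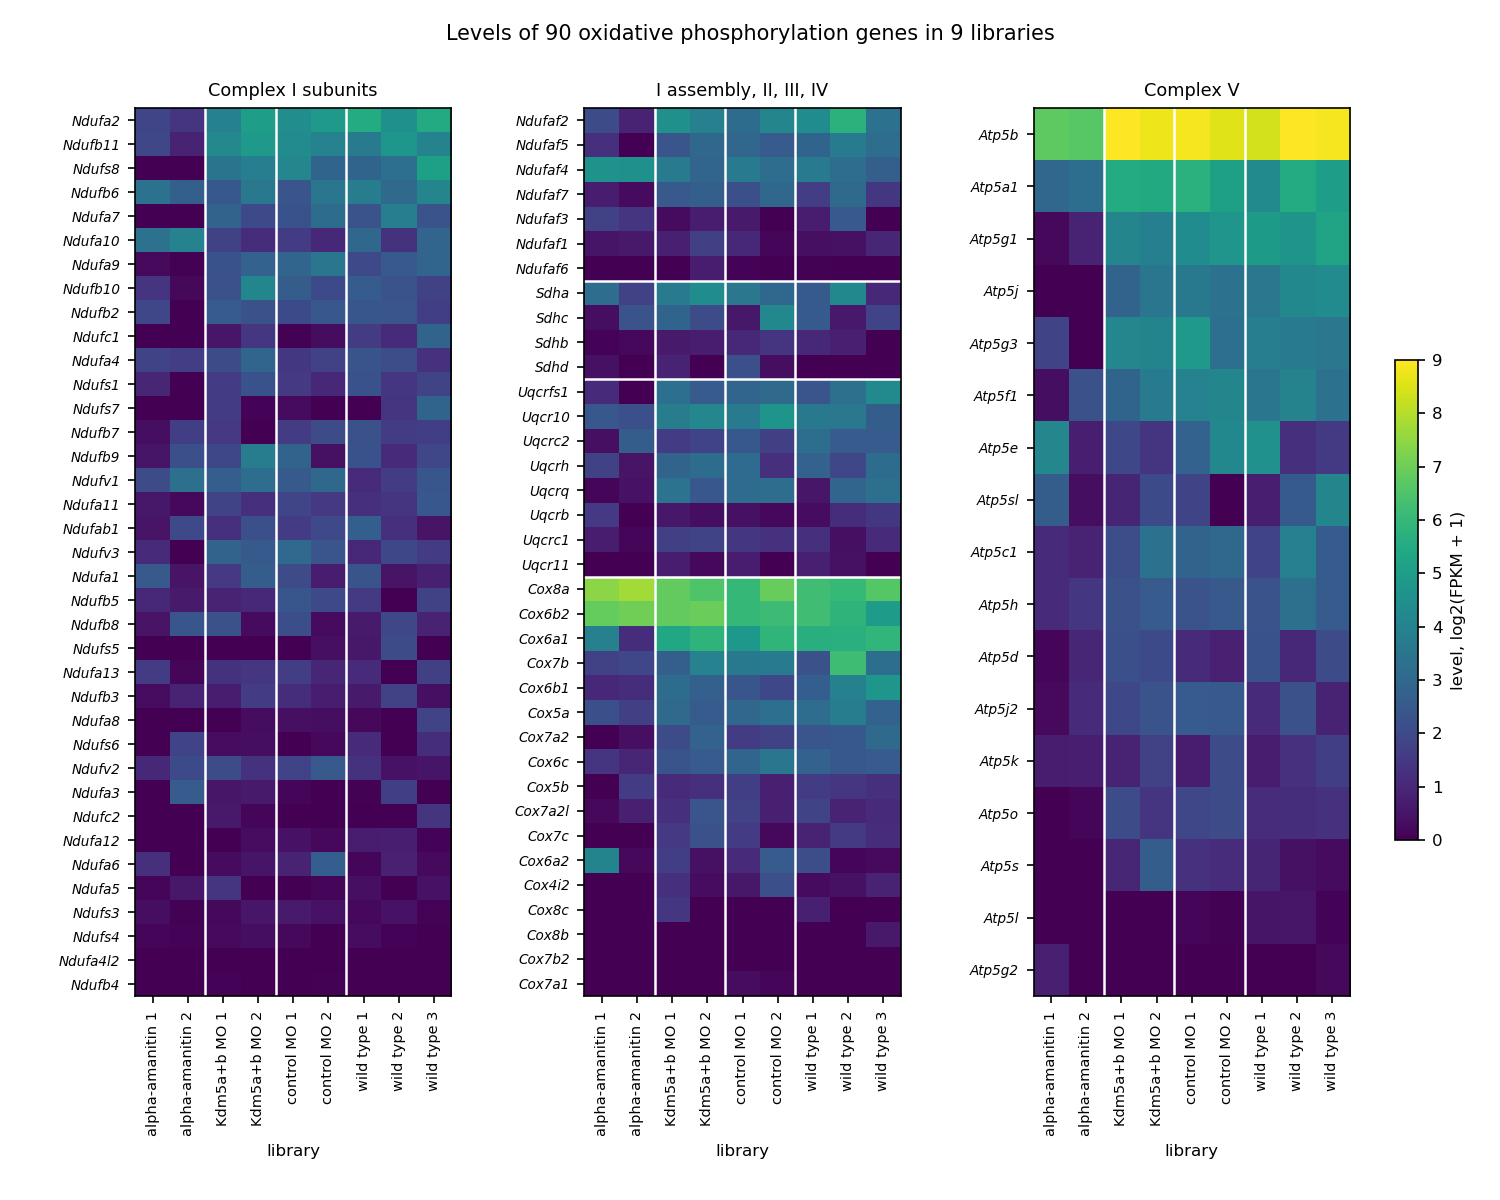
Levels of 90 of the 91 genes as log2(FPKM + 1) on a colour scale, with genes in rows, grouped by complex and sorted by wild-type mean, and the 9 libraries in columns. Atp5b is the brightest row in the 7 libraries without alpha-amanitin (337 to 579 FPKM), and Cox8a and Cox6b2 are the brightest rows in the alpha-amanitin libraries (116 to 216 FPKM).

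The upstream regions of these 4 genes, and of Cox6b1, the ubiquitous partner of Cox6b2, are shown because their transcripts moved in opposite directions under alpha-amanitin, as described below. Each is the 250 bases before the annotated start, 5′ to 3′ on the gene's strand, from RefSeq promoter windows on GRCm38.p6. Capitals mark matches, on either strand, to GCGCA followed by any base and GCGC, the motif of nuclear respiratory factor 1 (NRF1), or to CCGGAAG, a motif of ETS factors such as GABP, both known regulators of respiratory genes. A motif of YY1, AAGAT followed by GGCGG, was also searched. The windows lie at chr10:128083057-128083306 (plus strand), and on the minus strand at chr5:115348959-115349208, chr19:7217617-7217866, chr7:4753095-4753344 and chr7:30626115-30626364.
Atp5b: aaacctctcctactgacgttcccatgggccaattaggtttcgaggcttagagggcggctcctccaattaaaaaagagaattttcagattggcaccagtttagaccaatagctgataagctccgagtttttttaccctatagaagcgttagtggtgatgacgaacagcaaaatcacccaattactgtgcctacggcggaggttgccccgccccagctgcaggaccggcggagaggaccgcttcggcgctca
Cox6a1: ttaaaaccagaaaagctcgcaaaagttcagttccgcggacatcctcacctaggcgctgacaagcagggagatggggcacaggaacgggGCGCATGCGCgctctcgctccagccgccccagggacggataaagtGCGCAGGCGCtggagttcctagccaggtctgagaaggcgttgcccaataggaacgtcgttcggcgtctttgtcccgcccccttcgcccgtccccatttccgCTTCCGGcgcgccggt
Cox8a: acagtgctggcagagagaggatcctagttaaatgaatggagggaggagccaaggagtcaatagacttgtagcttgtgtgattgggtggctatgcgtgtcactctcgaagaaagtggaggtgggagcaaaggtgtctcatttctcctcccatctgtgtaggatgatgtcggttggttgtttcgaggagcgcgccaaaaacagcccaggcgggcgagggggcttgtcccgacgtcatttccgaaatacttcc
Cox6b2: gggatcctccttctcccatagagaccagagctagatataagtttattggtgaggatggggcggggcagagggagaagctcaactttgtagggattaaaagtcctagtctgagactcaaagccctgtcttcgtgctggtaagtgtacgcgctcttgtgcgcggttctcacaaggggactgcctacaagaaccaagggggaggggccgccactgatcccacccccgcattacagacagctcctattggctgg
Cox6b1: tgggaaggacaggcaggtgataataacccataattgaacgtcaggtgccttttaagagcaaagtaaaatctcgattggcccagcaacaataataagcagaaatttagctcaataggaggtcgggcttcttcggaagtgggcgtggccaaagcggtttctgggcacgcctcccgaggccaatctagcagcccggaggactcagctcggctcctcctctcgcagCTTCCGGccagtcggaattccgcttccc

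The Cox6a1 stretch holds the NRF1 letters at 2 places and the ETS letters near its end, and the Cox6b1 stretch holds the ETS letters near its end, with no overlap between matches. In Cox8a the ETS letters occur across the start and again after it, so no whole match stands in the printed stretch, and neither Cox6b2 nor Atp5b holds any of the 3 motifs in its window. Across the 76 of 91 genes with a window (250 bases before to 50 after the start), 19 held the NRF1 letters (25%, against 5.19% of 27025 genes), 17 the ETS letters (22.4%, against 9.93%) and 6 the YY1 letters (7.89%, against 0.995%). At least 1 of the 3 occurred in 36 of the 76 (47.4%, against 14.6%). By complex that was 14 of 33 for complex I, 3 of 6 for its assembly factors, 3 of 3 for complex II, 3 of 5 for complex III, 3 of 13 for complex IV and 10 of 16 for complex V. A match describes letters in a window, and its absence says nothing about binding.

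Under alpha-amanitin, transcripts of the 91 genes were mostly at lower levels than in wild type, and 3 were higher. Of the 73 genes that reached 1 FPKM in at least 2 of the 9 libraries and were tested, 22 were lower (30.1%, against a background of 25.1% of all 13137 tested genes) and 3 were higher (4.11%, against a background of 4.31%). A gene is called where the adjusted p of limma is under 0.05, with Benjamini-Hochberg adjustment over the 13137 genes. The shares of the 73 genes were therefore near those of all genes. The median difference in log2(FPKM + 1), alpha-amanitin minus wild type, was −0.98 over the 73 genes and −0.56 over all tested genes, and 59 of the 73 lay below 0 (80.8%, against 65.8% of all genes). At an unadjusted p under 0.05 there were 36 of the 73, against a background of 40.4%. In 38 of the 73 every alpha-amanitin library lay below every wild-type library, against a background of 41.1%. In 4 of the 73 every alpha-amanitin library lay above every wild-type library, against a background of 13.4%. FPKM is relative to each library's total. With quantile normalization, which forces equal distributions, the median of all genes stood at 0.17, and 14 members were lower and 6 higher, against 1806 lower and 1716 higher among all genes and 3299 and 566 without it.

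The summed level of the 91 genes was 571 and 583 FPKM with alpha-amanitin, 1172 and 1160 FPKM with Kdm5a+b MO, 1048 and 1053 FPKM with control MO and 927, 1305 and 1120 FPKM in wild type. The composition of the sum differed as well. Atp5b made up 18.8% and 17.1% of it with alpha-amanitin and 36.4% to 44.4% in wild type, while Cox8a and Cox6b2 together made up 50.3% and 59.7% with alpha-amanitin and 9.32% to 16.1% in wild type. At least 1 FPKM was reached by 38 and 31 of the 91 genes with alpha-amanitin, by 62 and 61 with Kdm5a+b MO, by 63 and 55 with control MO and by 59, 59 and 61 in wild type. As shares of the 91 genes these were 41.8% and 34.1% with alpha-amanitin and 60.4% to 69.2% in the other libraries. The share of all 32287 genes was also lower, at 24.7% and 24.6% with alpha-amanitin and 32.9% to 34.8% in the other libraries. Across the 73 tested genes, Pearson's r of log2 levels, a description over genes that share libraries, was 0.707 between the alpha-amanitin libraries, 0.437 to 0.689 between an alpha-amanitin library and any other, and 0.759 to 0.884 between libraries of the same group among the rest. Between libraries of different groups among the rest r was 0.707 to 0.917. Over all tested genes r was 0.876 between the alpha-amanitin libraries and 0.610 to 0.689 between one of them and any other. Among the rest it was 0.846 to 0.902 within a group and 0.854 to 0.926 between groups.

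**Figure D2:**
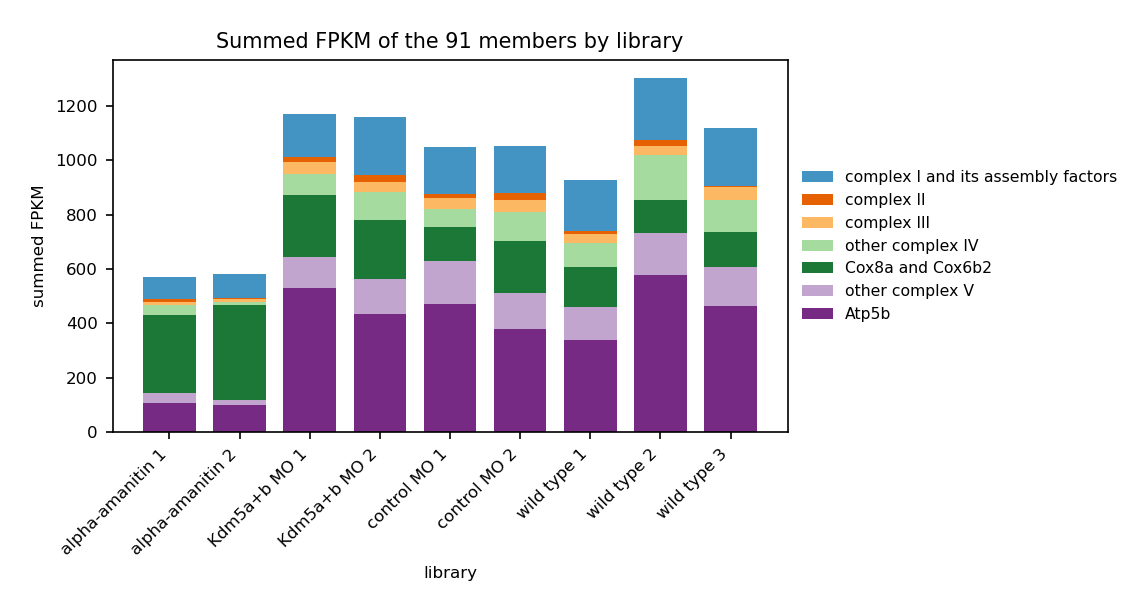
Summed FPKM of the 91 genes in each of the 9 libraries, stacked by complex, with Atp5b and the pair Cox8a and Cox6b2 as segments of their own. The alpha-amanitin bars end at 571 and 583 FPKM and the 7 others at 927 to 1305 FPKM, and the Cox8a and Cox6b2 segment fills 50.3% and 59.7% of the alpha-amanitin bars.

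Complex I, the entry point for electrons from NADH, had 29 of its 38 genes tested. Of these, 7 fell under alpha-amanitin (24.1%, near the 25.1% of all tested genes). The median difference was −0.64 in log2(FPKM + 1), against −0.56 for all tested genes, and turned to 0.20 with quantile normalization. Ndufa2, an accessory subunit of the matrix arm, was the highest complex I gene in wild type. It had 2.67 and 1.53 FPKM with alpha-amanitin against 44.9, 22.03 and 43.8 FPKM in wild type, with 14.6 and 32.3 FPKM with Kdm5a+b MO and 20.4 and 27.7 FPKM with control MO. The groups did not overlap, and the difference of −3.57 (SE 0.44) had an adjusted p of 0.000183. Ndufb11, an accessory subunit of the membrane arm (chrX:20615326-20617619), had 2.80 and 0.796 FPKM with alpha-amanitin against 12.0, 25.4 and 15.5 FPKM in wild type, a difference of −2.77 (SE 0.45, adjusted p 0.00111). Its 2 alpha-amanitin values lay below all 7 other libraries.

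Among the core subunits of complex I encoded in the nucleus, which carry the path of electrons, Ndufs8 fell. Ndufs8, which carries iron-sulfur clusters (chr19:3908870-3912717), had a listed level of 0 FPKM in both libraries with alpha-amanitin and had 6.44, 8.76 and 33.3 FPKM in wild type (adjusted p 0.00148). It lay between 6.54 and 17.0 FPKM in the 4 injected libraries and so stood above 6 FPKM in all 7 libraries without the toxin. Ndufs1, an iron-sulfur subunit of the NADH-oxidising module, had 0.956 and 0 FPKM with alpha-amanitin against 3.85, 1.67 and 2.61 FPKM in wild type and was not called (adjusted p 0.0714). Ndufv1, which binds NADH and flavin, had 3.20 and 8.96 FPKM with alpha-amanitin and 1.17, 2.01 and 4.25 FPKM in wild type, and Ndufv2, an iron-sulfur subunit of the same module, had 1.06 and 3.04 FPKM with alpha-amanitin and 1.47, 0.361 and 0.425 FPKM in wild type. Both pairs of groups overlapped, and neither was called (adjusted p 0.200 and 0.304). Ndufs7, which carries the last iron-sulfur cluster before quinone, had a listed level of 0 FPKM in both libraries with alpha-amanitin and had 0.0102, 1.58 and 6.46 FPKM in wild type (adjusted p 0.182). Ndufs3, another core subunit, stayed at or under 0.553 FPKM in all 9 libraries and was not tested.

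Accessory subunits of complex I gave the other calls. Ndufa7 had 0 and 0.00612 FPKM with alpha-amanitin against 3.98, 13.6 and 3.95 FPKM in wild type (adjusted p 0.00493). Ndufa9 (chr6:126821863-126849144) had 0.179 and 0.0490 FPKM with alpha-amanitin against 2.93, 4.67 and 6.60 FPKM in wild type (−2.31, SE 0.48, adjusted p 0.00422), a call that did not hold with quantile normalization (adjusted p 0.0738). Ndufc1 had 0 and 0.0201 FPKM with alpha-amanitin against 2.05, 1.13 and 6.47 FPKM in wild type (adjusted p 0.0332). In each of these the alpha-amanitin values lay below all 3 wild-type values. The Ndufc1 call was lost under 7 of the 17 alternative settings, without either alpha-amanitin library among them (adjusted p 0.125 in both). Of the 22 complex I genes not called, Ndufa6 was the lowest in wild type among those tested, with 1.39 and 0 FPKM with alpha-amanitin and 0.116, 0.792 and 0.177 FPKM in wild type.

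Among the 6 tested assembly factors of complex I, 2 fell (33.3%, against 25.1% of all tested genes) and 1 rose (16.7%, against 4.31%). The median of the 6 was −0.80 and turned to 0.23 with quantile normalization. Ndufaf2, a chaperone of late complex I assembly, had 3.25 and 0.828 FPKM with alpha-amanitin against 19.98, 54.0 and 9.13 FPKM in wild type (−3.03, SE 0.67, adjusted p 0.00622), which did not hold without alpha-amanitin replicate 2 (adjusted p 0.0598). Ndufaf5, which modifies a core subunit during assembly, had 1.32 and 0 FPKM with alpha-amanitin against 6.53, 12.0 and 8.39 FPKM in wild type (adjusted p 0.00259). Ndufaf4 (chr4:24898083-24905001), a factor for assembly of the matrix arm, was higher, with 23.4 and 21.96 FPKM with alpha-amanitin against 12.5, 8.23 and 5.66 FPKM in wild type. Both alpha-amanitin values lay above all 7 others, of which the highest was 12.5 FPKM. The difference was 1.33 (SE 0.42, adjusted p 0.0341), and the call did not hold without alpha-amanitin replicate 1 (adjusted p 0.128) or 2 (0.111) or without wild-type replicate 2 (0.0651) or 3 (0.0975).

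Complex II, succinate dehydrogenase, is also an enzyme of the citric acid cycle and has all its subunits encoded in the nucleus. None of its 3 tested genes was called under alpha-amanitin by limma (0 of 3 at an unadjusted p under 0.05, against 40.4% of all tested genes). The median of the 3 was −0.35 and turned to 0.60 with quantile normalization. Sdha, the flavoprotein that oxidises succinate, had 8.20 and 2.45 FPKM with alpha-amanitin, 12.4 and 19.8 FPKM with Kdm5a+b MO, 10.9 and 7.32 FPKM with control MO and 4.87, 17.4 and 1.01 FPKM in wild type. Wild type alone spanned more than the gap between the groups. Sdhc, a membrane anchor, had 0.245 and 3.93 FPKM with alpha-amanitin, 6.54 and 3.25 FPKM with Kdm5a+b MO, 0.488 and 17.6 FPKM with control MO and 4.84, 0.543 and 2.48 FPKM in wild type. Sdhb, the iron-sulfur subunit, had 0.0731 and 0.157 FPKM with alpha-amanitin and 1.06, 0.739 and 0 FPKM in wild type. Sdhd, the other anchor, was not tested, with 0.337 and 0 FPKM with alpha-amanitin and 0 FPKM in all 3 wild-type libraries. In Sdha and Sdhc the replicates of a group lay far apart.

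In complex III, cytochrome c reductase, all 7 tested genes lay below 0 (100%, against 65.8% of all tested genes), with a median of −1.31. With quantile normalization the median was −0.33 and Uqcrc1 turned to 0.51. Without that normalization, 1 of the 7 genes was called lower (14.3%, against 25.1% of all tested genes). That gene was Uqcrfs1, the Rieske iron-sulfur protein (chr13:30540308-30545362), with 1.10 and 0 FPKM with alpha-amanitin against 4.18, 8.98 and 19.0 FPKM in wild type (adjusted p 0.00536, and 0.0525 without alpha-amanitin replicate 2). Its values in the injected groups, 8.85 and 4.99 FPKM with Kdm5a+b MO and 6.74 and 7.75 FPKM with control MO, lay within the wild-type range. Uqcr10, a small structural subunit, had 4.45 and 3.56 FPKM with alpha-amanitin against 11.6, 11.1 and 5.28 FPKM, without overlap but without a call (−0.98, SE 0.44, adjusted p 0.125). Uqcrc1, a core subunit of the matrix side, was low throughout, with 0.635 and 0.0906 FPKM with alpha-amanitin against 1.30, 0.293 and 1.10 FPKM in wild type.

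In complex IV, cytochrome c oxidase, 5 of 13 tested genes fell (38.5%) and 2 rose (15.4%) under alpha-amanitin. Of all tested genes, 25.1% fell and 4.31% rose. The median of the complex was −1.20 (−0.32 with quantile normalization). Cox8a (chr19:7215158-7217616) had 171 and 216 FPKM with alpha-amanitin, 113 and 90.7 FPKM with Kdm5a+b MO, 62.3 and 120 FPKM with control MO and 74.7, 65.0 and 96.9 FPKM in wild type. Both alpha-amanitin values lay above all 7 others. The means were 194 ± 31.6 FPKM with alpha-amanitin (SD, n = 2) and 78.9 ± 16.4 FPKM in wild type (SD, n = 3), a 2.45-fold ratio, and the difference of 1.29 (SE 0.30) had an adjusted p of 0.00886 that became 0.0731 without alpha-amanitin replicate 2. Cox6b2 (chr7:4751792-4753094) had 116 and 132 FPKM with alpha-amanitin, 114 and 123 FPKM with Kdm5a+b MO, 62.1 and 70.7 FPKM with control MO and 74.8, 56.6 and 30.2 FPKM in wild type. The alpha-amanitin and Kdm5a+b MO values overlapped, and both sets lay above every control MO and wild-type library. Its difference from wild type was 1.28 (SE 0.34, adjusted p 0.0155), a 2.31-fold ratio of means, and was not called without alpha-amanitin replicate 1 (adjusted p 0.0510) or 2 (0.0886).

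The ubiquitous forms of subunits 6a and 6b fell. Cox6b1 (chr7:30616974-30626151), the 6b form of most tissues, had 0.985 and 1.27 FPKM with alpha-amanitin, 8.14 and 5.77 FPKM with Kdm5a+b MO, 4.26 and 2.86 FPKM with control MO and 5.38, 14.7 and 25.4 FPKM in wild type (−2.70, SE 0.57, adjusted p 0.00492, and 0.0536 with quantile normalization). The Cox6b2 level was 118 and 104 times the Cox6b1 level with alpha-amanitin, 14.0 and 21.3 times with Kdm5a+b MO, 14.6 and 24.7 times with control MO and 13.9, 3.85 and 1.19 times in wild type. The alpha-amanitin ratios thus lay above those of all other libraries. They rest on low Cox6b1 levels, whose bounds in the deposited tables were 0.0138 to 1.96 FPKM and 0 to 2.55 FPKM in the alpha-amanitin libraries. Cox6a1 (chr5:115345642-115348981) had 14.3 and 1.27 FPKM with alpha-amanitin, 40.3 and 56.3 FPKM with Kdm5a+b MO, 26.7 and 58.8 FPKM with control MO and 50.1, 51.1 and 60.2 FPKM in wild type (−3.21, SE 0.65, adjusted p 0.00391). The alpha-amanitin libraries differed from each other more than the wild-type ones did, and both lay below all other libraries. Cox6a2, the heart and muscle form of 6a, had 15.8 and 0.134 FPKM with alpha-amanitin and 3.43, 0.118 and 0.183 FPKM in wild type and was not called (adjusted p 0.394).

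Of the 8 tissue or hypoxia isoforms among the 91 genes, 6 had a wild-type mean under 1 FPKM and 3 were tested. Cox7a1 and Cox8b, the muscle forms of subunits 7a and 8, had at most 0.242 and 0.531 FPKM in any library, and Cox7b2, a testis form of 7b, at most 0.0234 FPKM. Cox8c, the testis form of subunit 8, reached 1.65 FPKM in 1 Kdm5a+b MO library and 0.738 FPKM in 1 wild-type library and was at 0 in the other 7. Ndufa4l2, a gene induced by hypoxia, was at 0 in all 9. Cox4i2, the lung and hypoxia form of subunit 4, was at 0 in both alpha-amanitin libraries and had 0.200, 0.321 and 0.845 FPKM in wild type. Cox6b2 was thus the highest of these isoforms in every library. Of their 6 tested ubiquitous partners, 3 fell (Cox6a1, Cox6b1 and Cox7a2), 1 rose (Cox8a), and Cox7b and Ndufa4 were not called. Among all tested genes, 25.1% fell and 4.31% rose. Cox7b had 2.32 and 2.76 FPKM with alpha-amanitin against 3.69, 72.1 and 8.53 FPKM in wild type, where replicate 2 held most of the mean (adjusted p 0.118). Ndufa4 had 2.61 and 2.12 FPKM with alpha-amanitin against 4.10, 3.47 and 1.44 FPKM in wild type.

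Other complex IV subunits fell as well. Cox7a2, the ubiquitous 7a form, had 0 and 0.288 FPKM with alpha-amanitin against 4.23, 4.60 and 7.62 FPKM in wild type (adjusted p 0.00287). Cox6c had 1.57 and 0.965 FPKM with alpha-amanitin against 6.14, 4.52 and 4.98 FPKM in wild type (−1.46, SE 0.42, adjusted p 0.0247), and Cox5a had 3.57 and 2.28 FPKM with alpha-amanitin against 8.24, 13.2 and 6.06 FPKM in wild type (−1.33, SE 0.44, adjusted p 0.0424). All 3 were without overlap. The Cox5a call was lost under 14 of 17 alternative settings and the Cox6c call under 7, and each was lost without either alpha-amanitin library (Cox5a adjusted p 0.0742 and 0.203, Cox6c 0.0572 and 0.136). Summed over the complex, complex IV genes had 326 and 360 FPKM with alpha-amanitin and 237 to 287 FPKM in wild type, and without Cox8a and Cox6b2 the sums were 38.7 and 11.7 FPKM with alpha-amanitin and 87.6 to 165 FPKM in wild type. The direction of the complex IV sum thus rested on those 2 genes.

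**Figure D3:**
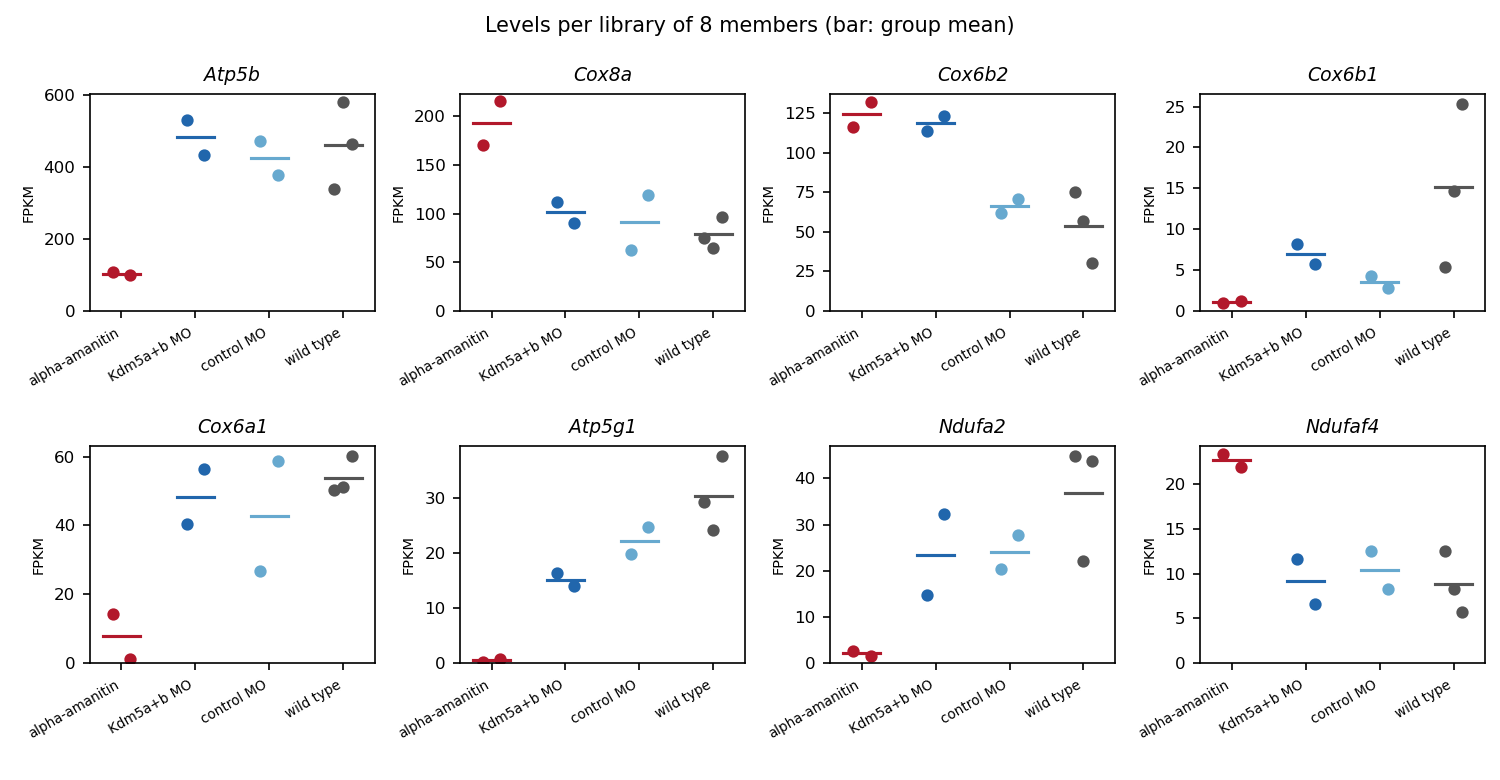
FPKM of 8 genes in each library (points), with the group mean as a bar, in the order alpha-amanitin, Kdm5a+b MO, control MO and wild type. Cox8a, Cox6b2 and Ndufaf4 sit higher with alpha-amanitin than in wild type, the 5 others sit lower, and Cox6b2 is also high with Kdm5a+b MO (114 and 123 FPKM).

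Complex V, the ATP synthase, had 15 of its 17 genes tested. Under alpha-amanitin 7 of the 15 fell (46.7%, against 25.1% of all tested genes) and none rose (against 4.31%). The complex had a median of −1.47 (−0.39 with quantile normalization, where the median of all genes was 0.17). Its summed level was 143 and 119 FPKM with alpha-amanitin and 459 to 732 FPKM in wild type. Atp5b (chr10:128083273-128090391) had 107 and 99.7 FPKM with alpha-amanitin, 531 and 434 FPKM with Kdm5a+b MO, 472 and 378 FPKM with control MO and 337, 579 and 464 FPKM in wild type. Both alpha-amanitin values lay far below all 7 others. The means were 103 ± 5.25 FPKM with alpha-amanitin (SD, n = 2) and 460 ± 121 FPKM in wild type (SD, n = 3), 4.45-fold lower with alpha-amanitin, and the difference of −2.11 (SE 0.24) had an adjusted p of 9.03e-05. At 103 FPKM it was still the highest complex V gene in these embryos. Atp5a1, the alpha subunit that forms the F1 head with beta, had 6.89 and 8.57 FPKM with alpha-amanitin against 18.9, 45.8 and 31.4 FPKM in wild type (−1.84, SE 0.38, adjusted p 0.00457).

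The other 3 genes of the F1 head and its central stalk were not called. Atp5c1, the gamma subunit, had 1.13 and 0.796 FPKM with alpha-amanitin against 2.47, 14.1 and 5.16 FPKM in wild type (−1.81, SE 0.63, adjusted p 0.0519). Atp5d, the delta subunit, had 0.0899 and 0.954 FPKM with alpha-amanitin against 3.86, 0.988 and 3.16 FPKM in wild type (adjusted p 0.107). In both, the alpha-amanitin values lay below all wild-type values. Atp5e, the epsilon subunit, varied within each group, with 16.9 and 0.683 FPKM with alpha-amanitin and 22.7, 1.40 and 1.90 FPKM in wild type.

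Atp5g1 of the membrane ring and Atp5j of the peripheral stalk of the ATP synthase both fell. The c-ring subunit is encoded by 3 genes that give the same mature protein. Atp5g1 (chr11:96068852-96075670) had 0.148 and 0.796 FPKM with alpha-amanitin, 16.3 and 13.9 FPKM with Kdm5a+b MO, 19.7 and 24.7 FPKM with control MO and 29.3, 24.1 and 37.6 FPKM in wild type. The difference was −4.42 (SE 0.37, adjusted p 1.33e-05), and the alpha-amanitin values were under 1 FPKM while all others were above 13 FPKM. Atp5g3 (chr2:73908447-73911326) had 2.57 and 0 FPKM with alpha-amanitin against 13.5, 12.4 and 10.9 FPKM in wild type (adjusted p 0.00464). Atp5g2 stayed at or under 0.713 FPKM in all libraries and was not tested. Atp5j, the F6 subunit of the peripheral stalk (chr16:84827866-84835625), had a listed level of 0 FPKM in both libraries with alpha-amanitin and had 11.3, 17.2 and 19.1 FPKM in wild type (adjusted p 5.29e-05).

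In the peripheral stalk, Atp5f1, subunit b, had 0.247 and 3.68 FPKM with alpha-amanitin against 10.7, 15.4 and 9.19 FPKM in wild type (−2.37, SE 0.56, adjusted p 0.00870, and 0.0746 without alpha-amanitin replicate 1). Atp5h, subunit d, had 1.17 and 1.71 FPKM with alpha-amanitin against 3.97, 9.02 and 5.13 FPKM in wild type (−1.47, SE 0.46, adjusted p 0.0339). The groups did not overlap in either gene. The Atp5h call was lost under 9 of 17 alternative settings, without either alpha-amanitin library among them (adjusted p 0.154 and 0.0872). Outside the stalk, Atp5s was the lowest tested gene in wild type among those named for complex V. It was at 0 in both alpha-amanitin libraries and had 0.885, 0.334 and 0.200 FPKM in wild type.

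**Figure D4:**
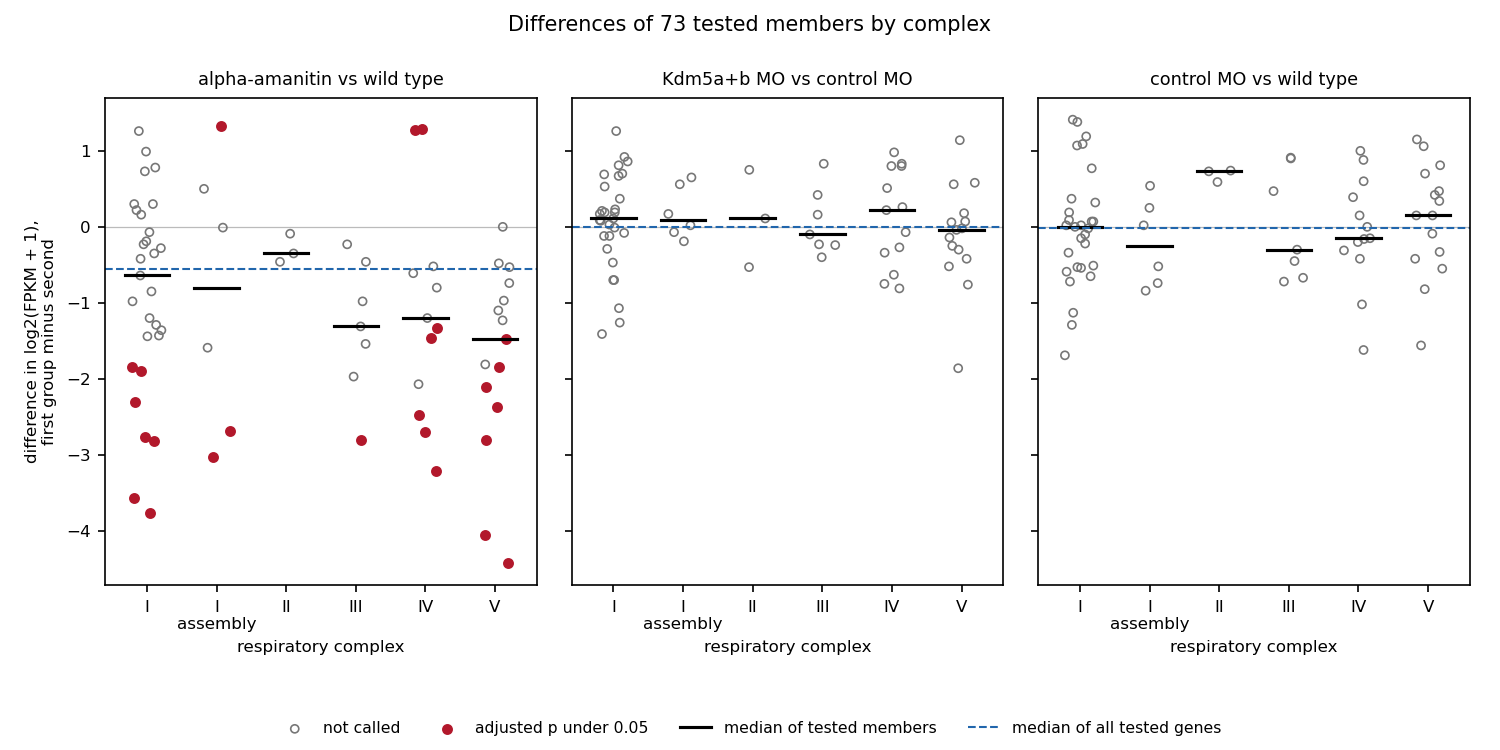
Differences in log2(FPKM + 1) of the 73 tested genes by complex, 1 panel per comparison, with called genes filled, the median of each complex as a black bar and the median of all 13137 tested genes as a dashed line. With alpha-amanitin the medians run from −0.35 (complex II) to −1.47 (complex V) against −0.56 for all genes, those of complexes I and II and of the assembly factors turn positive with quantile normalization, and no gene is filled in the other 2 panels.

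Of the 25 calls, 11, all of them falls, were made under each of the 17 alternative settings as well: 3 accessory subunits and 1 core subunit of complex I (Ndufa2, Ndufa7, Ndufb11 and Ndufs8), the assembly factor Ndufaf5, Cox7a2 of complex IV, and Atp5a1, Atp5b, Atp5g1, Atp5g3 and Atp5j of complex V. None of the 3 rises held under all settings, and no called gene changed sign.

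Under the morpholinos against Kdm5a and Kdm5b no change was called among the 91 genes. This comparison sets embryos with the targeted morpholinos beside embryos with mismatch morpholinos, so both groups were injected. Kdm5a itself had 19.5 and 15.3 FPKM with Kdm5a+b MO and 12.8 and 9.44 FPKM with control MO, and Kdm5b had 38.1 and 27.6 FPKM with Kdm5a+b MO and 55.3 and 39.6 FPKM with control MO. A morpholino can act without removing the mRNA, so these levels do not check the knockdown. Of the 73 tested genes 0 were called by limma, as were 0 of all 13137 genes (a background of 0%), and 1 of 73 had an unadjusted p under 0.05, against 3.15% of all genes. The median difference was 0.07 over the 73 genes and 0 over all genes, with complex medians from −0.10 (complex III) to 0.22 (complex IV). In 11 genes both Kdm5a+b MO libraries lay below both control MO libraries (background 16.8%) and in 11 above (background 16.5%).

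The gene with the smallest p was Cox6b2, with the 114 and 123 FPKM with Kdm5a+b MO and 62.1 and 70.7 FPKM with control MO given above, a difference of 0.83 (SE 0.37, unadjusted p 0.0469, adjusted p 1 by limma). Its groups did not overlap. Next came Ndufa6, an accessory subunit of complex I, with 0.210 and 0.410 FPKM with Kdm5a+b MO and 0.874 and 5.40 FPKM with control MO (−1.41, SE 0.66, unadjusted p 0.0573). Ndufb5, a membrane-arm subunit, had 0.847 and 0.984 FPKM with Kdm5a+b MO and 4.33 and 2.97 FPKM with control MO (−1.26, SE 0.63, unadjusted p 0.0720). All 3 had an adjusted p of 1. Over the 73 genes the standard error of this comparison had a median of 0.61 in log2(FPKM + 1).

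The comparison of control MO with wild type shows injected embryos beside embryos with no stated injection, and it uses the same wild-type libraries as the alpha-amanitin comparison. By limma 0 of 73 genes were called, as were 0 of all genes (a background of 0%), with a smallest adjusted p of 0.999. At an unadjusted p under 0.05 there were 5 of 73, against 4.69% of all genes. The 3 smallest belonged to Ndufc1, with 0.0306 and 0.238 FPKM with control MO and 2.05, 1.13 and 6.47 FPKM in wild type (−1.69, SE 0.57, unadjusted p 0.0138), Cox6b1 (−1.62, SE 0.57, unadjusted p 0.0170) and Ndufv2, with 2.53 and 4.70 FPKM with control MO (1.41, SE 0.54, unadjusted p 0.0240). For Ndufc1 and Cox6b1, whose falls under alpha-amanitin are given above, the control MO values were also below all wild-type values. In 4 of the 73 genes both control MO libraries lay below all wild-type libraries (background 8.85%) and in 12 above them (background 9.26%). The summed level of the 91 genes with control MO, 1048 and 1053 FPKM, lay within the wild-type range.

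Other mitochondrial genes gave a setting for these results. Of 39 tested assembly factors and further genes of the respiratory chain, 9 fell (23.1%) and 1 rose (2.56%) under alpha-amanitin, and of 17 tested citric acid cycle genes 6 fell (35.3%) and 1 rose (5.88%). Of all tested genes 25.1% fell and 4.31% rose. The median difference was −0.83 for the 39 genes and −0.53 for the 17, against −0.56 for all tested genes. Cox14, a factor of complex IV assembly, had 0.115 and 0 FPKM with alpha-amanitin and 8.78, 14.95 and 6.83 FPKM in wild type (adjusted p 0.000278), and Coa6, another such factor, had 0 and 0.426 FPKM with alpha-amanitin and 7.85, 8.09 and 12.4 FPKM in wild type (adjusted p 0.00399). Cox10, which makes the heme A precursor for complex IV, rose, with 68.0 and 78.2 FPKM with alpha-amanitin and 28.0, 10.5 and 29.0 FPKM in wild type (1.78, SE 0.40, adjusted p 0.00657). In the citric acid cycle Mdh2, malate dehydrogenase, had 3.61 and 4.24 FPKM with alpha-amanitin and 40.1, 57.8 and 48.1 FPKM in wild type (−3.32, SE 0.30, adjusted p 2.11e-05), and Idh3g, a subunit of isocitrate dehydrogenase, had 0.710 and 1.48 FPKM with alpha-amanitin and 11.8, 13.9 and 39.7 FPKM in wild type (adjusted p 0.000677). Cs, citrate synthase, rose, with 107 and 131 FPKM with alpha-amanitin and 60.0, 69.4 and 71.5 FPKM in wild type (0.82, SE 0.22, adjusted p 0.0176). None of these genes was called in the other comparisons.

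Of 9 tested nuclear regulators of respiratory genes 4 fell (44.4%, against 25.1% of all tested genes) and none rose, with a median of −0.99 against −0.56 for all tested genes. Gabpa, the DNA-binding subunit of GABP, had 1.73 and 1.03 FPKM with alpha-amanitin, 144 and 116 FPKM with Kdm5a+b MO, 140 and 129 FPKM with control MO and 80.7, 126 and 103 FPKM in wild type (−5.44, SE 0.28, adjusted p 1.62e-06). Gabpa overlaps Atp5j in the tables' annotation, and whether strand was used in quantification is not given, so reads of the 2 genes may not be told apart. Yy1 had 1.61 and 1.78 FPKM with alpha-amanitin and 28.1, 33.7 and 29.0 FPKM in wild type (−3.53, SE 0.31, adjusted p 1.91e-05). Nrf1, named here because its motif was searched, had 15.5 and 18.1 FPKM with alpha-amanitin and 12.4, 14.9 and 20.6 FPKM in wild type and was not called (0.10, SE 0.34, adjusted p 0.849). Of 10 tested genes for mitochondrial DNA expression 3 fell (30%, against the same 25.1%) and none rose, with a median of −1.60. Polrmt, the mitochondrial RNA polymerase, had 0.148 and 0.00807 FPKM with alpha-amanitin and 22.5, 5.73 and 10.5 FPKM in wild type (adjusted p 0.000617), and Polg2, a subunit of the mitochondrial DNA polymerase, had 0.0391 and 0 FPKM with alpha-amanitin and 1.76, 1.14 and 6.81 FPKM in wild type (adjusted p 0.0469).

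Among 9 tested carriers and porins 4 fell (44.4%, against 25.1% of all tested genes) and 1 rose (11.1%, against 4.31%), with a median of −1.26 against −0.56 for all tested genes. Slc25a5, an exchanger of ADP and ATP, had 3.63 and 0.469 FPKM with alpha-amanitin and 12.9, 12.7 and 8.12 FPKM in wild type (−2.20, SE 0.54, adjusted p 0.0110), and its relative Slc25a4 had a listed level of 0 FPKM in both libraries with alpha-amanitin and had 1.34, 3.03 and 8.74 FPKM in wild type (adjusted p 0.0174). Vdac2, a pore of the outer membrane, had 6.84 and 6.63 FPKM with alpha-amanitin and 2.52, 1.61 and 2.43 FPKM in wild type (1.29, SE 0.44, adjusted p 0.0464). The groups did not overlap in any of the 3.

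Some levels depend on how reads were assigned. Of the 91 genes, 20 have at least 1 near-identical copy elsewhere in the mouse genome (95% identity or more over at least 80% of the coding sequence), with 42 copies in all, 8 of them of Atp5l and 4 of Atp5h. Reads from such genes can be shared with the copy or dropped, which makes their levels uncertain. The 20 had a median wild-type mean of 1.31 FPKM and the 71 without a copy one of 2.68 FPKM. Of the called genes, Atp5g1, Atp5f1, Atp5h, Cox6c and Ndufb11 have copies. In addition, 21 of the 91 genes overlap another gene in the tables, among them Ndufa2 (with Tmco6), Ndufb11 (with Rbm10), Cox6c (with Vps13b), Atp5j (with Gabpa) and Atp5f1 (with Wdr77). Atp5b, Cox8a, Cox6b2, Cox6b1 and Cox6a1 have no overlap and no copy at 95% identity. At a lower identity cut, Cox8a and Cox6a1 have 1 copy each. The coding sequences are short, with a median of 432 bases and a range of 156 to 2181. Lower bounds of 0 FPKM in the deposited tables were found for 38 and 46 of the 91 genes with alpha-amanitin and for 18 to 28 in wild type.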

How the data were processed

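Each library has its own table of FPKM for 32287 genes as deposited by the authors, in Cufflinks format per the file headers, with bounds and a status beside each value, on build mm10. The submitters' processing notes list, for the series as a whole and without roles, BWA, Picard, Cufflinks, Trimmomatic, Bismark 12.5 and SAMtools. The RNA-seq aligner, annotation release and use of strand are not given in the sources used. Per the labels' protocols, RNA came from an RNeasy Micro kit and libraries from the TruSeq procedure. All 91 genes had the status OK. The values of 1 of them are not reported here, though it stays in the counts, sums and medians. Genes whose symbols match the pattern but that are not in these tables, and mitochondrially encoded genes, were not analysed here.

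From these FPKM values, log2(FPKM + 1) was tested with limma 3.58.1 in R 4.3.3 (eBayes with trend, two-sided), on the 13137 genes with at least 1 FPKM in 2 or more of the 9 libraries. Group was the only term, all 9 libraries shared 1 estimate of the spread (5 residual degrees of freedom), and Benjamini-Hochberg adjustment ran over the 13137 genes with a threshold of 0.05. Differences on this scale understate the change of low genes, and where libraries are listed at 0 no fold or SD is given. The fit was tested on simulated data in which only genes of high wild-type level were changed, so changes of low genes were not checked. Copies were searched with blastn 2.17.0 on GRCm38, and positions count from 1.

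The genes and lists were chosen with earlier results of these data known, so no list has a test of its own. Genes were named by rule: in each complex up to 4 called falls and 3 called rises, the 2 highest and the lowest tested genes in wild type, the 3 smallest p-values where nothing was called, listed isoforms and core subunits, complex II, and up to 2 called genes per pathway list and direction. This gave 47 names. Atp5h, Cox5a, Ndufa9, Ndufaf5 and Ndufb11 were added after their values were seen, because they were called. Alternatives tried were another pseudocount, no filter, rescaling to a common total (TPM), quantile normalization, a replicate block, eBayes without trend, array quality weights, only the 2 groups compared, and each library left out.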

Additional observations from a re-analysis of the deposited data

How the results depend on the processing

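Under alpha-amanitin the number of falls was 22, and 14 to 29 over the 17 alternatives, with 14 under quantile normalization and 16 to 24 when a library was left out. The number of rises was 3, against 0 without a filter, 6 with quantile normalization, 1 with only the 2 groups and 1 to 3 when a library was left out, with 1 without either alpha-amanitin replicate. The counts of 0 in the other 2 comparisons held under all alternatives. Complex medians moved with the scale. With a pseudocount of 0.1 they were −1.36 (complex I assembly), −2.10 (III), −1.98 (IV) and −2.33 (V), and after rescaling to TPM −1.80 (III), −1.47 (IV) and −1.96 (V). With quantile normalization they were 0.20 (I), 0.23 (I assembly), 0.60 (II), −0.33 (III), −0.32 (IV) and −0.39 (V). When a library was left out they ran from −0.83 to −0.56 (I), −0.96 to −0.58 (I assembly), −0.76 to −0.11 (II), −1.42 to −0.91 (III), −1.35 to −0.99 (IV) and −1.83 to −1.24 (V), and complex IV reached −0.99 without wild-type replicate 2. The cause was not tested.

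No called gene changed sign, and these uncalled genes did. Atp5e, at 0.00, was −0.17 with the smaller pseudocount, −0.05 with array quality weights and −1.70 to 1.71 when a library was left out. Sdha was 0.01 with the smaller pseudocount, 0.13 in TPM, 0.85 with quantile normalization, 0.17 with array quality weights and −0.88 to 0.72 when a library was left out. Sdhc was 0.60 with quantile normalization and −1.34 to 0.65 with a library left out. Ndufb5 was 0.10 with the smaller pseudocount, 0.75 with quantile normalization and −0.83 to 0.06 with a library left out. Ndufa4 was 0.85 with quantile normalization and −0.51 to 0.02 with a library left out, and quantile normalization gave 0.44 for Sdhb and 0.51 for Uqcrc1. With a library left out, Cox6a2 ran from −0.67 to 3.22 and Ndufa6 from −0.41 to 0.84.

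With the replicate number as a block there were 18 falls and 2 rises, Atp5e was −0.46 and Ndufb5 0.06. Deviations of same-numbered libraries correlated at −0.018 and −0.026 (alpha-amanitin and wild type), 0.041 (Kdm5a+b MO and control MO) and −0.023 and −0.048 (control MO and wild type). With 2 libraries in a group the deviations mirror each other, so these values cannot show whether same-numbered libraries share a collection. With 2 or 3 libraries a group and no read counts, the precision of genes near 1 FPKM is limited.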
